A study of Mus musculus with 8 samples.

Results

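The genes described here are the intracellular core of the Wnt/beta-catenin pathway (15 genes) and genes that beta-catenin is known to switch on (21 genes), 36 in all, of 16593 genes with a named probe. They were chosen by name, with earlier results of these data known. Every probe whose platform symbol or current alias was one of the names was taken. A probe was named for 34 of them, 53 probes in total, and Tcf7 and Axin1, without a named probe, were not analysed here. Expression was measured on 8 Illumina arrays of primary calvarial osteoblasts, cells that lay down bone in the skull vault, from C57Bl/6 mice. Of these, 4 were labelled Lrp5 knockout (Lrp5-/-) and 4 control (Lrp5+/+). All were from day 7 of differentiation with ascorbic acid at 50 ug/ml and beta-glycerol phosphate at 10 mM. Per the labels, all cells were infected with an adenovirus 48 hours before differentiation, which carried either Cre recombinase or green fluorescent protein. Which group received which virus is not stated in them. If the virus differed between the groups, its effects cannot be told apart from those of Lrp5 loss. Nor do the labels state whether each array stands for its own animal or culture. The p-values therefore reflect the spread of these arrays, possibly technical, and the number of arrays limits the precision.

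Lrp5 is a cell-surface coreceptor for Wnt ligands. Without a Wnt signal, a destruction complex built on Axin and Apc lets the kinases Csnk1a1 and Gsk3 mark beta-catenin for breakdown. A Wnt signal recruits Dishevelled and Axin to the receptors, beta-catenin accumulates, enters the nucleus and replaces Tle corepressors on the TCF and LEF factors, and their target genes are transcribed. Many of these targets are themselves inhibitors or receptors of the pathway, and in bone the pathway promotes the formation of osteoblasts and of bone matrix.

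The arrays could read only part of this pathway, and 0 of the 17 named genes that were tested passed. Of the named genes with a probe, 17 of 34 could be tested: 8 of 20 targets and 9 of 14 core genes. A probe was tested if 4 or more of the 8 arrays detected it, which means a signal above background with a detection p below 0.01. Of the 17, 0 passed a limma adjusted p of 0.05. Of the 7041 genes tested, 8.62% did (607). With so few named genes, 0 is close to what that share would give, and the difference was not tested. Before adjustment, 5 of the 17 had a p under 0.05, as did 25.8% of all genes tested. The median change, knockout-labelled minus control, was 0.09 log2 over the 8 targets and 0.00 over the 9 core genes, against 0.00 over all genes. The median size of the change regardless of direction was 0.10 log2 for the 17, against 0.11 for all genes. A bulk measurement cannot tell fewer cells of a type from less RNA per cell.

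Over the whole array, 9685 to 10363 of 25697 probes were detected per array. Of the 13 osteoblast markers listed, Runx2 and Spp1 had no named probe. Sp7, Col1a1, Col1a2, Alpl, Sparc and Pth1r were detected on all 8 arrays. Bglap, which encodes osteocalcin, Bglap2, Dmp1 and Phex were detected on none. Of 7 markers tested, 0 passed, though the means of all 7 were higher in the knockout-labelled arrays. The summed signal over the 11 with a probe, most of it from Sparc, was 32562 to 35822 on the knockout-labelled and 31053 to 33870 on the control arrays. The largest differences were of Ibsp, which encodes bone sialoprotein (0.58 log2, limma adjusted p = 0.07), and Col1a2, a type I collagen chain whose groups did not overlap (0.34, adjusted p = 0.0561). Ibsp was detected on 4 knockout-labelled arrays and 1 control array. It could be tested only through the group where it was higher, which favours its higher mean. Before normalization it was close to background, at 157 to 200 intensity units on the knockout-labelled and 152 to 206 on the control arrays. The size of its difference is therefore not exact. The part of these markers in the results below was not tested. The transcript of the targeted gene was close to background: the Lrp5 probe read 5.63, 5.66, 6.07 and 6.10 log2 on the knockout-labelled arrays (detected on 2) and 5.43, 5.70, 5.48 and 5.53 on the control arrays (detected on 1). It was thus not lower in the knockout-labelled arrays. It is unknown here whether this probe lies within the deletion. The labels are therefore unchecked by it, and every direction below rests on them. Lrp6, the closest relative of Lrp5, was detected on 0 knockout-labelled and 2 control arrays (5.72 ± 0.08 and 5.91 ± 0.38 log2; SD, n = 4).

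**Figure D1:**
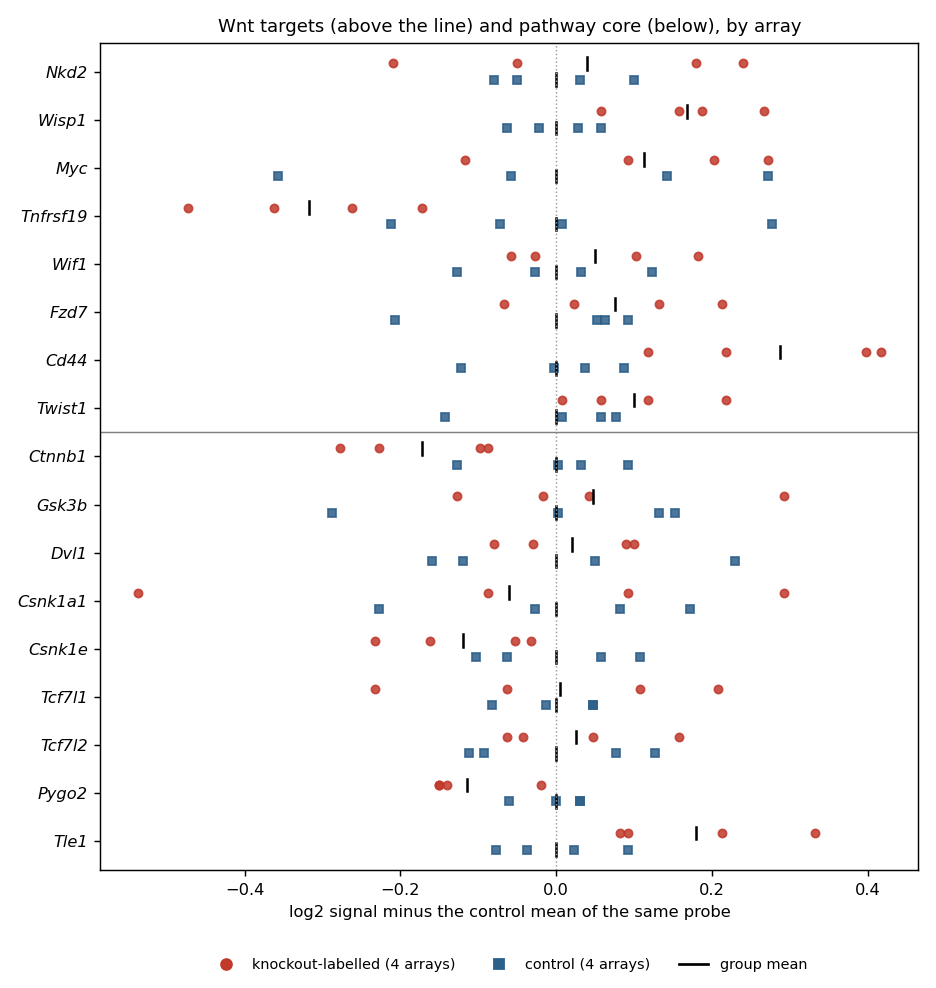
Log2 signal of the 17 tested genes on each array, as the difference from the control mean of the same probe, with knockout-labelled arrays (red circles) above control arrays (blue squares) and black ticks at group means. The groups are separate for Cd44 alone, and the knockout-labelled arrays lie from 0.32 below (Tnfrsf19) to 0.28 above (Cd44) the control mean on average.

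Among the cell-surface targets, Cd44 came nearest to a call. Cd44 is the receptor for hyaluronan, a sugar polymer of the matrix. Its brightest probe read 11.11, 11.09, 10.81 and 10.91 log2 on the knockout-labelled arrays, against 10.57, 10.69, 10.73 and 10.78 on the control arrays. Every knockout-labelled array lay above every control array, as was so for 7.54% of all genes tested, while 16.8% had groups that did not overlap in either direction. The change was 0.28 log2 (SE 0.08, 95% interval 0.10 to 0.47) with a limma adjusted p of 0.0595, just outside the threshold. This call depended on the processing. Cd44 passed under 7 of 20 alternatives, with an adjusted p as low as 0.00629 under a trended and robust prior. The adjusted p was 0.426, with a change of 0.16 log2, when its tested probes were averaged. All of these but the brightest were close to background. Leaving out knockout-labelled array 3 gave 0.0425.

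The probes of Cd44 disagreed. Of its 6 probes, 4 were tested, and besides the brightest they differed by 0.35, 0.08 and -0.09 log2 between the groups. On its own, none of the 4 passed (limma adjusted p from 0.0695 to 0.808). Over all named probes tested on their own 0 of 24 passed, beside 7.22% of the 9443 probes tested. For so few probes 0 is close to that share. The other genes with more than 1 tested probe, Wisp1, Ctnnb1, Csnk1e and Tle1, had probes that differed in the same direction.

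**Figure D2:**
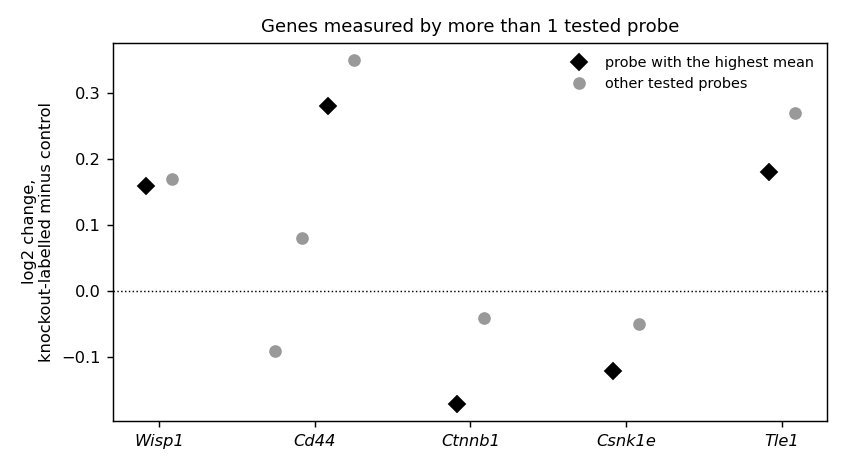
Log2 change, knockout-labelled minus control, of each tested probe for the 5 genes with more than 1. Black diamonds are the probe used for the gene and grey circles the others; the 4 probes of Cd44 spread from -0.09 to 0.35.

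Tnfrsf19, a receptor of the tumour necrosis factor receptor family also called Troy, was the only target tested whose mean was lower in the knockout-labelled arrays. It read 5.88, 5.58, 5.69 and 5.79 log2 there and 6.06, 6.33, 5.84 and 5.98 on the control arrays. The groups overlapped through a single pair of arrays, since the highest knockout-labelled value (5.88) exceeded the lowest control value (5.84). Its change of -0.32 log2 (SE 0.11, 95% interval -0.55 to -0.08) did not pass (limma adjusted p = 0.0943). The probe was detected on 2 knockout-labelled and 4 control arrays, so the size of the difference is not exact. It was -0.11 log2 without background correction and with the authors' table, and -0.17 with normexp. Fzd7, a Frizzled receptor that binds Wnt ligands together with Lrp5 or Lrp6, read 8.77, 8.96, 8.88 and 8.68 log2 on the knockout-labelled arrays and 8.80, 8.81, 8.84 and 8.54 on the control arrays. These ranges largely coincide (change 0.07 log2, 95% interval -0.12 to 0.27, adjusted p = 0.64).

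Wisp1, now named Ccn4, encodes a secreted matricellular protein of bone and was read by a pair of probes. The brighter read 12.02, 12.23, 12.15 and 12.12 log2 on the knockout-labelled arrays and 11.90, 12.02, 11.99 and 11.94 on the control arrays. The groups met only at 12.02. The change was 0.16 log2 (SE 0.06, 95% interval 0.02 to 0.31; limma adjusted p = 0.134), and the other probe differed by 0.17. With a trended and robust prior the adjusted p was 0.0443.

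The inhibitors among the targets that could be tested were Nkd2 and Wif1. Nkd2 binds Dishevelled and dampens the signal, and Wif1 is a secreted protein that binds Wnt ligands. Nkd2 read 9.78, 9.72, 9.49 and 9.33 log2 on the knockout-labelled arrays, against 9.57, 9.46, 9.49 and 9.64 on the control arrays, so that the control values fell inside the range of the others. Its change was 0.04 log2 (95% interval -0.18 to 0.26; limma adjusted p = 0.829). Wif1 averaged 6.24 ± 0.11 log2 in the knockout-labelled arrays and 6.19 ± 0.11 in the control arrays (SD, n = 4), a change of 0.05 (95% interval -0.12 to 0.22; adjusted p = 0.725). A change of Nkd2 by more than 0.26 log2 thus lies outside its interval. Wif1 was close to background, at 167 to 211 intensity units before normalization, so the size of its change is not exact.

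Of the transcription factors among the targets, Myc and Twist1 could be tested. Myc, a driver of cell growth and division, read 6.22, 6.33, 6.01 and 6.40 log2 on the knockout-labelled arrays and 6.07, 6.27, 5.77 and 6.40 on the control arrays, close to background in both groups. Its interval was wide (change 0.11 log2, 95% interval -0.19 to 0.40; limma adjusted p = 0.651), and the change was 0.04 without background correction and with the authors' table. Twist1, a basic helix-loop-helix factor that holds back osteoblast maturation, averaged 8.82 ± 0.09 log2 in the knockout-labelled arrays and 8.72 ± 0.10 in the control arrays (SD, n = 4; adjusted p = 0.403). In all, 7 of the 8 tested targets were above 0 and 1 below.

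**Figure D3:**
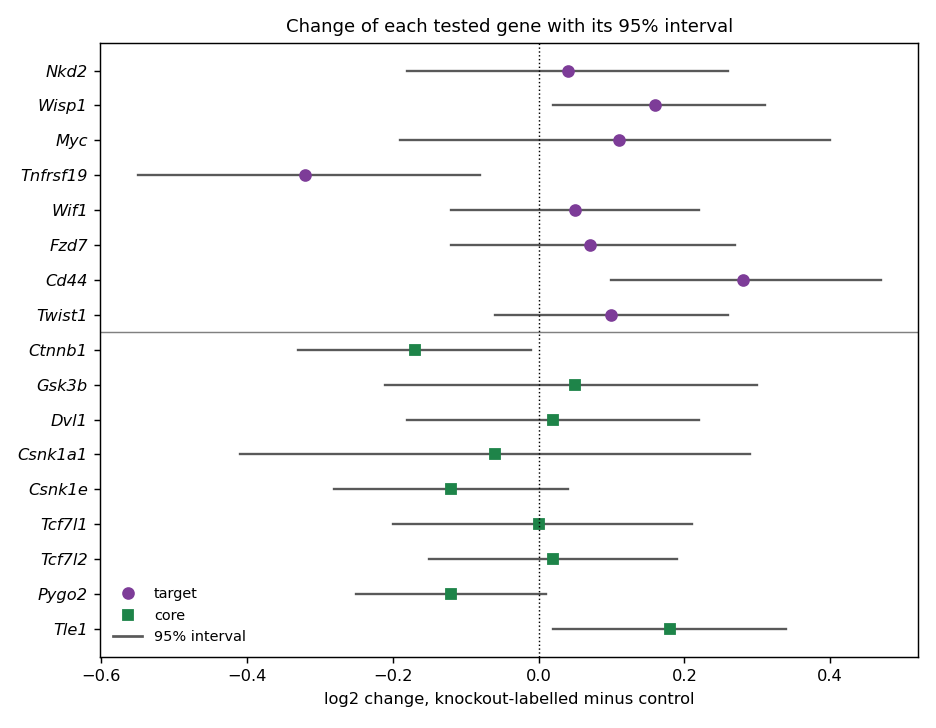
Log2 change, knockout-labelled minus control, of the 8 tested targets (purple circles) and 9 tested core genes (green squares), with 95% intervals from limma. Of the 17 intervals, 16 lie within 0.5 log2 of 0; that of Tnfrsf19 reaches -0.55.

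The targets most widely used to read Wnt activity were mostly not measurable. Of the 12 targets that had a probe but could not be tested, 11 were detected on no array. These were the TCF family factor Lef1, the transcription factor Sp5, the inhibitors Nkd1, Notum, Apcdd1, Dkk1 and Dact1, the receptors Lgr5 and Lgr6 for R-spondins, and Rnf43 and Znrf3, the ligases that remove Frizzled receptors. Axin2, the inducible scaffold of the destruction complex, was detected on 1 knockout-labelled array and on 0 control arrays. Its signal before normalization ran from 137 to 172 intensity units on the knockout-labelled arrays and from 148 to 170 on the control arrays. After normalization it read 5.46, 5.55, 6.04 and 5.51 log2 on the knockout-labelled arrays and 5.40, 5.50, 5.58 and 5.05 on the control arrays. The array that detected it is the one at 6.04, and without it the difference between the means was 0.12 in place of 0.26 log2.

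For the 15 named genes detected on no array, 11 targets and 4 core genes, only a bound on the signal can be given. Their signals before normalization lay between 105 and 158 intensity units over all 8 arrays, while the median of all probes was 125.8 to 154.8 by array. The differences between group means of these background signals ran from -0.24 (Lgr5) to 0.11 log2, and the lowest detection p among them was 0.0263 (Dact1). A change in these genes was not detectable at this signal.

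**Figure D4:**
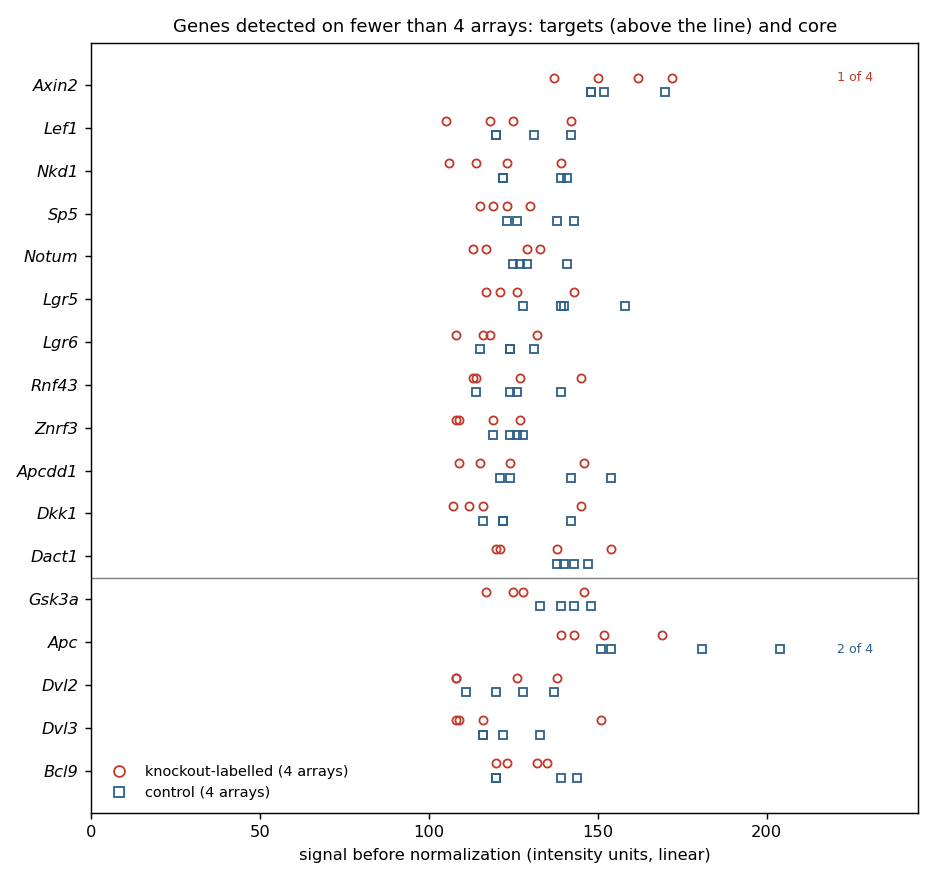
Signal before normalization of the 17 genes detected on fewer than 4 arrays, with knockout-labelled arrays (red circles) above control arrays (blue squares). Numbers at the right give the arrays that detected the gene: 1 of 4 knockout-labelled for Axin2 and 2 of 4 control for Apc.

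TCF and LEF factors bind DNA at short sequences of which 4 forms were searched on both strands: the form CTTTGAA, then the form CTTTGAT, besides these the form CTTTGTA, and lastly the form CTTTGTT. The search covered the 300 bases around each RefSeq start site (250 before and 50 after it, build GRCm38.p6). Windows were at hand for 27 of the named genes, 40 windows in all. At least 1 match stood in 5 of 21 target windows (23.8%) and in 2 of 19 core windows (10.5%), against 16.9% of all 32851 windows. Split by whether the gene was tested, 3 of 22 windows of tested genes (13.6%) and 4 of 18 windows of genes not tested (22.2%) held a match. The core windows were richer in G and C, with a median of 73.7%, than the target windows (63.0%) and all windows (52.7%). Windows of 4 genes are shown so that the letters can be set beside the measurements: Fzd7 and Tnfrsf19, which could be tested (for Tnfrsf19 the window of one of its start sites), and Sp5 and Dkk1, which hold 2 matches each and were detected on no array. Capitals mark the matches, on either strand, and a match describes the letters and is no sign of binding.
Fzd7, chr1:59481897-59482196, plus strand: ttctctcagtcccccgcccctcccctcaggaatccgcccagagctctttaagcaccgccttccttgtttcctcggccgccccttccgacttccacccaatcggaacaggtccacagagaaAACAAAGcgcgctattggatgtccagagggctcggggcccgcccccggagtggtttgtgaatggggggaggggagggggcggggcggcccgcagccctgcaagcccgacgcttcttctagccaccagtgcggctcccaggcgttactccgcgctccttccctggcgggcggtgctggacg
Tnfrsf19, chr14:61037938-61038237, minus strand: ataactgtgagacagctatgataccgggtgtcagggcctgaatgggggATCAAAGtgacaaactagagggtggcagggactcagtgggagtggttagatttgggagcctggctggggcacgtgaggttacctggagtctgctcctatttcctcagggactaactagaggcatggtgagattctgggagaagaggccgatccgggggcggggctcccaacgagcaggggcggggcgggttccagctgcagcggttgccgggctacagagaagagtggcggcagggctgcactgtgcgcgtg
Sp5, chr2:70474673-70474972, plus strand: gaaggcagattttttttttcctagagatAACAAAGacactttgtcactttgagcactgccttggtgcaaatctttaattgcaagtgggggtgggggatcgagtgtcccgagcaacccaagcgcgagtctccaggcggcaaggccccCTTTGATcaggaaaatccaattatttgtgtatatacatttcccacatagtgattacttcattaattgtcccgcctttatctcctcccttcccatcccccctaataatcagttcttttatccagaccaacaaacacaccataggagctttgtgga
Dkk1, chr19:30549447-30549746, minus strand: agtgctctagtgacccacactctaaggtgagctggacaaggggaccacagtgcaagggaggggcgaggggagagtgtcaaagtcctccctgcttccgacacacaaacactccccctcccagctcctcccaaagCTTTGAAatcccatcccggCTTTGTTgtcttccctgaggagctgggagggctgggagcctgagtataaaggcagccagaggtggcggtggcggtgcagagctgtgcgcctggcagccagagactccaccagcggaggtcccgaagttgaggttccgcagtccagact

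In the core, Ctnnb1, which encodes beta-catenin itself, read 12.34, 12.21, 12.16 and 12.35 log2 on the knockout-labelled arrays, against 12.47, 12.31, 12.44 and 12.53 on the control arrays. The groups overlapped through the lowest control array. The change was -0.17 log2 (SE 0.07, 95% interval -0.33 to -0.01), with a limma adjusted p of 0.164, and the other probe differed by -0.04. The mean of both probes differed by -0.10. No alternative brought it past the threshold, the lowest adjusted p being 0.0514. The protein is controlled mainly by its breakdown, which these RNA measurements do not read.

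The kinases and scaffold of the destruction complex were partly measured. Gsk3b, the kinase that marks beta-catenin, averaged 7.25 ± 0.18 log2 in the knockout-labelled arrays and 7.21 ± 0.20 in the control arrays (SD, n = 4; limma adjusted p = 0.834). Csnk1a1, which primes beta-catenin for Gsk3, averaged 5.86 ± 0.35 and 5.92 ± 0.17, knockout-labelled first, and was detected on 3 and 4 arrays (adjusted p = 0.847). Its interval, -0.41 to 0.29 log2, was the widest of the core. Csnk1e, a casein kinase that acts on Dishevelled, read 9.48, 9.50, 9.30 and 9.37 on the knockout-labelled arrays and 9.59, 9.43, 9.64 and 9.47 on the control arrays (change -0.12, adjusted p = 0.337). Its groups overlapped, with 2 of the control values inside the range of the others.

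Apc, the scaffold that holds beta-catenin in the complex, was detected on 0 knockout-labelled and 2 control arrays by its brighter probe and was not tested. It read 5.70, 5.18, 5.78 and 5.43 log2 on the knockout-labelled arrays and 5.59, 6.20, 5.57 and 5.94 on the control arrays. The control arrays at 6.20 and 5.94 stood above all others, and the remaining ones shared a range with the knockout-labelled arrays. Gsk3a, the second Gsk3 kinase, was detected on no array. Of the Dishevelled proteins, which carry the signal from the receptors to the complex, Dvl1 averaged 7.81 ± 0.09 log2 in the knockout-labelled arrays and 7.79 ± 0.18 in the control arrays (SD, n = 4; adjusted p = 0.906). Dvl2 and Dvl3 were detected on no array.

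The nuclear partners of beta-catenin were well measured where they were detected. Tcf7l1, mostly a repressor of target genes, averaged 8.81 ± 0.19 log2 in the knockout-labelled arrays and 8.80 ± 0.06 in the control arrays (SD, n = 4; limma adjusted p = 0.981). Tcf7l2 averaged 7.31 ± 0.10 and 7.28 ± 0.12, knockout-labelled first (adjusted p = 0.888). The 95% intervals of these DNA-binding factors were -0.20 to 0.21 and -0.15 to 0.19 log2. Bcl9, which links beta-catenin to the Pygo coactivators, was detected on no array.

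Pygo2, a coactivator that reads histone marks, read 10.28, 10.40, 10.27 and 10.27 log2 on the knockout-labelled arrays, against 10.45, 10.42, 10.36 and 10.45 on the control arrays. A single knockout-labelled array, at 10.40, reached the control range. The change was -0.12 log2 (SE 0.06, 95% interval -0.25 to 0.01; limma adjusted p = 0.236). Tle1, a corepressor that sits on TCF factors when beta-catenin is absent, read 8.43, 8.19, 8.31 and 8.18 on the knockout-labelled arrays and 8.19, 8.06, 8.12 and 8.02 on the control arrays. Only the highest control array reached the knockout-labelled range. Its change was 0.18 log2 (SE 0.07, 95% interval 0.02 to 0.34; adjusted p = 0.152), and its other tested probe differed by 0.27 (adjusted p = 0.103 among probes tested on their own). With its tested probes averaged, the adjusted p was 0.0706.

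A further 30 known or proposed Wnt targets and 47 further core and nuclear components were read in the same fit. These lists were drawn up with earlier results of these data known, so their shares of calls are no independent test. Of 22 such targets tested, 3 rose and 3 fell (27.3%, against 8.62% of all genes, 3.54% upward and 5.08% downward), with a median change of 0.04 log2. Of 30 such core genes tested, 0 rose and 1 fell (3.33%), with a median of 0.00. For both lists the genes not tested were those with no named probe (1 and 4) or with detection on fewer than 4 arrays (7 and 13).

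The falls among these targets were of Ccnd1, Edn1 and Birc5. Ccnd1, the cyclin D1 that takes cells from G1 into S phase, read 12.15, 12.33, 12.21 and 12.19 log2 on the knockout-labelled arrays and 12.80, 12.68, 12.72 and 12.64 on the control arrays. The groups were well apart, and the fall of 0.49 log2 (95% interval -0.63 to -0.35; limma adjusted p = 0.00204) passed under all 20 alternatives. Its 3 probes fell by 0.49, 0.48 and 0.53. Edn1, the vasoactive peptide endothelin 1, averaged 6.23 ± 0.15 in the knockout-labelled arrays and 6.69 ± 0.14 in the control arrays (SD, n = 4; adjusted p = 0.0169). The change was -0.45 log2, but -0.20 without background correction and with the authors' table, and -0.28 with normexp. Edn1 was close to background, at 166 to 206 intensity units on the knockout-labelled and 215 to 224 on the control arrays before normalization. The size of its change is thus not exact. The call was lost without knockout-labelled array 2 (0.0502) or control array 3 (0.051). Birc5, the survivin protein of dividing cells, averaged 8.70 ± 0.08 and 9.09 ± 0.19, knockout-labelled first (adjusted p = 0.0318). Its call was lost when any array other than control array 4 was left out (up to 0.0873), and its other probes did not pass on their own (adjusted p = 0.142 and 0.208).

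The rises were of Fst, Ptgs2 and Rspo3. Fst, the activin antagonist follistatin, read 8.36, 7.88, 8.16 and 8.05 log2 on the knockout-labelled arrays and 7.49, 7.42, 7.47 and 7.16 on the control arrays. With no overlap, it rose by 0.73 log2 (95% interval 0.49 to 0.97; limma adjusted p = 0.00415). The rise was 0.48 without background correction and 0.47 with the authors' table, just below that interval. Rspo3, a secreted R-spondin that strengthens Wnt signals at the receptors, read 10.50, 10.39, 10.37 and 10.37 on the knockout-labelled arrays and 10.17, 10.04, 9.97 and 10.06 on the control arrays, a rise of 0.35 (adjusted p = 0.0106). Both passed under all 20 alternatives. Ptgs2, the inducible cyclooxygenase, averaged 9.19 ± 0.24 in the knockout-labelled arrays and 8.74 ± 0.08 in the control arrays (SD, n = 4; adjusted p = 0.0296). It did not pass when knockout-labelled array 1 or control array 1, 2 or 3 was left out (adjusted p up to 0.081).

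The core gene that fell was Tle4, a corepressor of the same family as Tle1. It read 7.53, 7.58, 7.49 and 7.40 log2 on the knockout-labelled arrays, against 7.84, 7.78, 8.03 and 7.97 on the control arrays. The groups did not overlap, and the fall of 0.41 log2 (SE 0.07, 95% interval -0.57 to -0.24; limma adjusted p = 0.00947) passed under all 20 alternatives. Its size was smaller without background correction (-0.27) and with the authors' table (-0.26). Its 2 other probes were detected on no array. Tle1 lay above 0 without passing, and the difference between the changes of Tle1 and Tle4 was not tested.

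**Figure D5:**
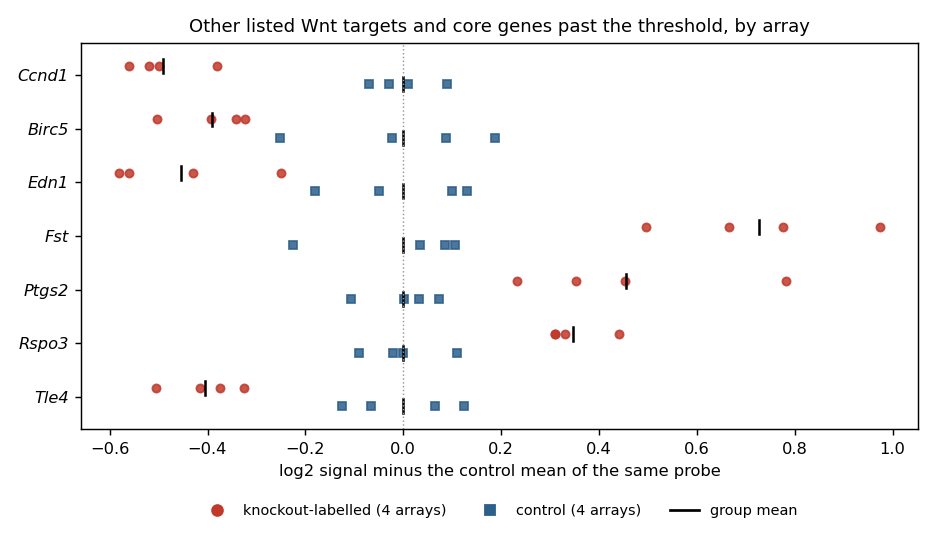
Log2 signal of the 7 further pathway genes past the threshold on each array, as the difference from the control mean of the same probe, with knockout-labelled arrays (red circles) above control arrays (blue squares) and black ticks at group means. These genes are shown because they passed the threshold, which favours separate groups. In all 7 the groups are apart, as in 16.8% of all genes tested, with mean changes from -0.49 (Ccnd1) to 0.73 (Fst).

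Markers of other cell types were read beside these genes, and their part in the results was not tested. Of 7 macrophage markers with a probe, 5 were tested and 0 passed, though the means of all 5 were lower in the knockout-labelled arrays. Adgre1, Lyz2 and Cd14, detected on every array, differed by -0.26, -0.21 and -0.12 log2 (limma adjusted p = 0.0976, 0.124 and 0.334). Tyrobp and Fcgr3, both close to background, differed by -0.27 and -0.06 (limma adjusted p = 0.131 and 0.864), and Ptprc and Itgam were detected on no array. Fcgr3 was detected on 3 arrays of each group. Tyrobp was detected on 1 knockout-labelled and 3 control arrays. It could thus be tested mainly through the group where it was higher, which favours a lower knockout-labelled mean. The summed signal over the 7 genes, most of it from Lyz2, was 2455 to 2950 on the knockout-labelled arrays and 2815 to 3209 on the control arrays. Of 6 chondrocyte markers, Col2a1 rose (0.45 log2, limma adjusted p = 0.00757) and Comp did not pass. The other 4, Acan among them, were detected on no array. The sums, 1844 to 1961 on the knockout-labelled and 1256 to 1568 on the control arrays, came mostly from Col2a1 and largely repeat its rise. Of 5 muscle markers with a probe, Acta1 fell (by 0.73, limma adjusted p = 0.0153) and the other 4 were detected on no array. The sums, 225 to 285 on the knockout-labelled and 323 to 395 on the control arrays, hold only Acta1 and background signals and so repeat its fall. All 7 endothelial and all 6 adipocyte markers with a probe were detected on no array.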

How the data were processed

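Per the file headers, the authors deposited a linear signal intensity for each of 25697 probes on each array, with a detection column headed as a p-value; the submitters' processing notes name GenomeStudio. The deposited detection column rose with the signal (Spearman correlation at least 0.979 on each array), so 1 minus it was taken as the detection p. A second deposited table of log2 values, with a median of 6.89 on every array, was used as an alternative; its normalization is not given in the sources used.

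Background correction and quantile normalization used neqc (offset 16) of limma 3.58.1 in R 4.3.3, which returns log2 values. Probes detected on at least 4 arrays and with 1 gene symbol (9443) were kept, and the brightest probe of each gene by mean over all arrays was used, giving 7041 genes. The platform annotation gave 1 symbol to 23978 probes and none to 1719; 23962 matched the GRCm38.p6 gene table by gene ID. No 2 arrays held identical values. The groups were compared with lmFit and eBayes without covariates, with Benjamini-Hochberg adjustment over all genes; intervals are 95%. The genes and lists were chosen with earlier results of these data known. All members, Lrp5, Lrp6 and every further listed gene past the threshold (at most 8 a list) were named. Promoter windows of the named genes on chromosome 18 were not used here, and the share over all windows was taken without this restriction. The steps were also run on simulated data with independent noise between arrays. That run was required to recover changes of 1 log2 with few false calls. Every tested named gene changed by less, so the run does not show that changes of their size would be found. Alternatives covered background correction, scaling, the authors' table, array weights, filters, probe choice, the prior, a replicate block and leaving out each array.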

Additional observations from a re-analysis of the deposited data

Results flagged for a closer look

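Of 86 groups of 4 arrays looked at, 8 held an array far from the 3 others, with a gap to the nearest of them above 0.83 of the whole range; chance gives about 1 in 20. Of the tested genes, Fzd7 had control array 4 at 8.54 log2 with the others at 8.80 to 8.84, and without it the difference was 0.00 in place of 0.07. Pygo2 had knockout-labelled array 2 at 10.40 with the others at 10.27 to 10.28, and without it the difference was -0.15 in place of -0.12. Axin2 had knockout-labelled array 3 at 6.04 with the others at 5.46 to 5.55. The remaining 5 were background signals of genes detected on no array. Notum stood at 4.96 on knockout-labelled array 3, Lgr6 at 4.72 on control array 3, and Dkk1 at 4.79 on knockout-labelled array 4. Dvl3 stood at 4.92 on knockout-labelled array 4 and Bcl9 at 5.28 on knockout-labelled array 1.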

How the results depend on the processing

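Over all genes, 607 calls (249 higher, 358 lower) became 977 without background correction, 969 with the authors' log2 table, 965 with a trended and robust prior and 376 with no detection filter, and 323 to 718 with 1 array left out (326 to 395 for knockout-labelled arrays 1, 2 and 3, 323 to 367 for control arrays 1, 2 and 3); 75th percentile scaling gave 338 higher and 315 lower. The core count was 0 under every alternative run. The target count became 1 (Cd44) without background correction, with normexp, with 75th percentile scaling, with the authors' table and with detection on all 8 arrays, 2 (Cd44 and Wisp1) with the trended and robust prior, and 0 to 1 with 1 array left out (1 without knockout-labelled array 3). Of the further targets 3 to 6 passed with 1 array left out, the 3 without control array 3. Of the further core genes 2 passed (Tle4 and Tbl1x) without background correction, with normexp, the authors' table or the trended prior, and 1 to 2 with 1 array left out. Birc5 lost its call also with no detection filter or its probes averaged, and Ptgs2 with no filter. With 1 array left out, changes near 0 turned sign: Nkd2 (-0.02 to 0.13), Myc (-0.01 to 0.20), Gsk3b (-0.05 to 0.11), Dvl1 (-0.03 to 0.10), Csnk1a1 (-0.18 to 0.10), Tcf7l1 (-0.06 to 0.08) and Tcf7l2 (-0.02 to 0.06). The causes were not tested. The labels do not say that replicate numbers pair the arrays. Same-number correlations were weak (-0.03 to 0.09), and 1 of 4 knockout-labelled arrays correlated best with its own number. This does not settle whether the arrays were handled in pairs. With the number as a block 408 genes passed, among them 0 targets, 0 core genes, 5 further targets (without Birc5, adjusted p = 0.051) and 1 further core gene. Signal over background, not the fit, limited what could be said of the genes detected on no array.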
